A study of Homo sapiens with 9 samples.

Results

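Transcripts of ETS family transcription factors were measured in GIST-T1 cells given an ETV1, a HAND1 or a Luciferase sgRNA. GIST-T1 is an established human line of gastrointestinal stromal tumour, abbreviated GIST. The genes described are ETV1, ETV4, ETV5, ETS1, ETS2, ELK1, ELK3, ELK4, GABPA and ETV6, taken by symbol; all 10 were found among the 23610 entries of the expression table, and all 10 were among the 11348 genes tested. Polyadenylated RNA was sequenced in 9 libraries. Of these, 3 carried the ETV1 sgRNA, 3 the HAND1 sgRNA and 3 the Luciferase sgRNA, which has no target in human cells and serves as the control. All groups share the cell line, which the labels call a GIST and whose treatment they call a knockdown; the nuclease, the sgRNA sequences, the time after delivery and the use of clones or pools are not stated in the labels. Whether libraries of 1 group stem from different cultures is not stated either, so the spread behind each p-value is that between these libraries and may be technical.

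ETS factors share a winged helix-turn-helix domain that binds DNA around a GGAA core. ETV1, ETV4 and ETV5 form the PEA3 subfamily, whose transcripts and proteins follow the activity of the RAS and ERK cascade; in GIST, ETV1 acts downstream of the mutated receptor KIT and is also a lineage factor of interstitial cells of Cajal, which pace the gut. ELK1, ELK3 and ELK4 are ternary complex factors, which bind beside SRF at immediate early genes when ERK phosphorylates them. ETS1 and ETS2 are ERK-responsive activators, GABPA is the DNA-binding subunit of GABP, a factor of many housekeeping and mitochondrial promoters, and ETV6 is a repressor.

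Each value is in FPKM, a fragment number divided by transcript length and by library size, so levels of different genes can be set beside each other. The libraries had between 0.637 and 1 times the depth of Luciferase sgRNA replicate 1, as read from the spacing of low values, and between 11283 and 11345 genes at 1 FPKM or more. Luciferase sgRNA replicate 3 stood apart, with a summed FPKM of 538689 against 451286 to 479939 in the other 8 libraries, and with 13.3% of it in ribosomal protein genes against 9.39% to 10.6%. All 9 GIST markers listed were tested, with KIT at a mean of 192 FPKM over the libraries. Of 14 markers of other cell types 13 had a mean below 1 FPKM, and KRT20 and ELAVL4 were listed at 0 throughout; CD68, a lysosomal protein used as a macrophage marker, had a mean of 5.05 FPKM. Of the targeted genes, HAND1 fell in the HAND1 sgRNA libraries to 38.3 ± 2.25 FPKM, against 114 ± 1.12 FPKM with Luciferase sgRNA (SD, n = 3 each; log2 -1.55, limma adjusted p = 2.07e-07), and ETV1 is described next.

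ETV1 fell with its own sgRNA. It was at 10.9, 12.0 and 11.2 FPKM in the 3 ETV1 sgRNA libraries, against 42.2, 39.4 and 37.4 FPKM in the 3 Luciferase sgRNA libraries. The groups lay far apart, and the mean was 71.3% lower (log2(FPKM + 1) difference -1.71, SE 0.0606, 95% confidence interval -1.85 to -1.58, limma adjusted p = 6.22e-07, n = 3 each). Some ETV1 transcript thus remained in these libraries, and transcript level alone does not give the protein that is left. In these bulk libraries fewer cells with a transcript and less of it per cell cannot be told apart. With HAND1 sgRNA ETV1 was at 40.8, 39.8 and 41.8 FPKM, within the range of the Luciferase sgRNA libraries (difference 0.041, interval -0.094 to 0.18, adjusted p = 0.761).

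ETV4 and ETV5, the relatives of ETV1, fell with HAND1 sgRNA. ETV4 was at 28.0, 28.1 and 27.0 FPKM with HAND1 sgRNA, against 34.0, 33.4 and 33.1 FPKM with Luciferase sgRNA. The 3 HAND1 sgRNA values all lay below the 3 control values, with a mean 17.4% lower (log2 -0.27, SE 0.0464, limma adjusted p = 0.00659, n = 3 each). ETV5 was at 93.7, 86.5 and 92.7 FPKM with HAND1 sgRNA, against 113.6, 107.9 and 116.2 FPKM with Luciferase sgRNA. The groups again did not overlap, and the mean was 19.2% lower (log2 -0.30, SE 0.0510, adjusted p = 0.00540). Both calls held in each of 18 alternative fits, among them one without each library. ETV4 and ETV5 were the 2 of 10 ETS factors called in this comparison, both lower, while 6.60% of all genes tested were called (3.67% higher and 2.93% lower).

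The ETV1 sgRNA gave no call in ETV4 or ETV5. ETV4 was at 32.8, 32.2 and 31.7 FPKM with ETV1 sgRNA, just below the lowest of the Luciferase sgRNA values given above (log2 -0.054, 95% confidence interval -0.16 to 0.049, limma adjusted p = 0.824). ETV5 was at 109.6, 109.2 and 108.8 FPKM, inside the range of the control libraries (log2 -0.043, interval -0.16 to 0.071, adjusted p = 0.892). Over the 10 ETS factors ETV1 itself was the 1 gene called with ETV1 sgRNA, with 0.203% of all genes tested called (0.141% higher and 0.0617% lower). Set directly against the ETV1 sgRNA libraries, the HAND1 sgRNA libraries had lower ETV4 (log2 -0.21, SE 0.0464, adjusted p = 0.0306) and lower ETV5 (-0.26, SE 0.0510, adjusted p = 0.0170) and higher ETV1 (1.75, SE 0.0606, adjusted p = 1.63e-07), 3 of 10 where 4.05% of all genes were called (2.01% higher and 2.04% lower). The ETV4 call between the sgRNAs was kept in 6 of 18 alternative fits and that of ETV5 in 12, whereas ETV1 was called in each of the 18. Leaving out any ETV1 sgRNA or HAND1 sgRNA library ended the ETV4 call (adjusted p between 0.0728 and 0.133), as did leaving out Luciferase sgRNA replicate 2 (adjusted p = 0.0582). The ETV5 call was lost without ETV1 sgRNA replicates 1, 2 or 3 and without HAND1 sgRNA replicates 2 or 3 (adjusted p between 0.0564 and 0.0711).

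**Figure D1:**
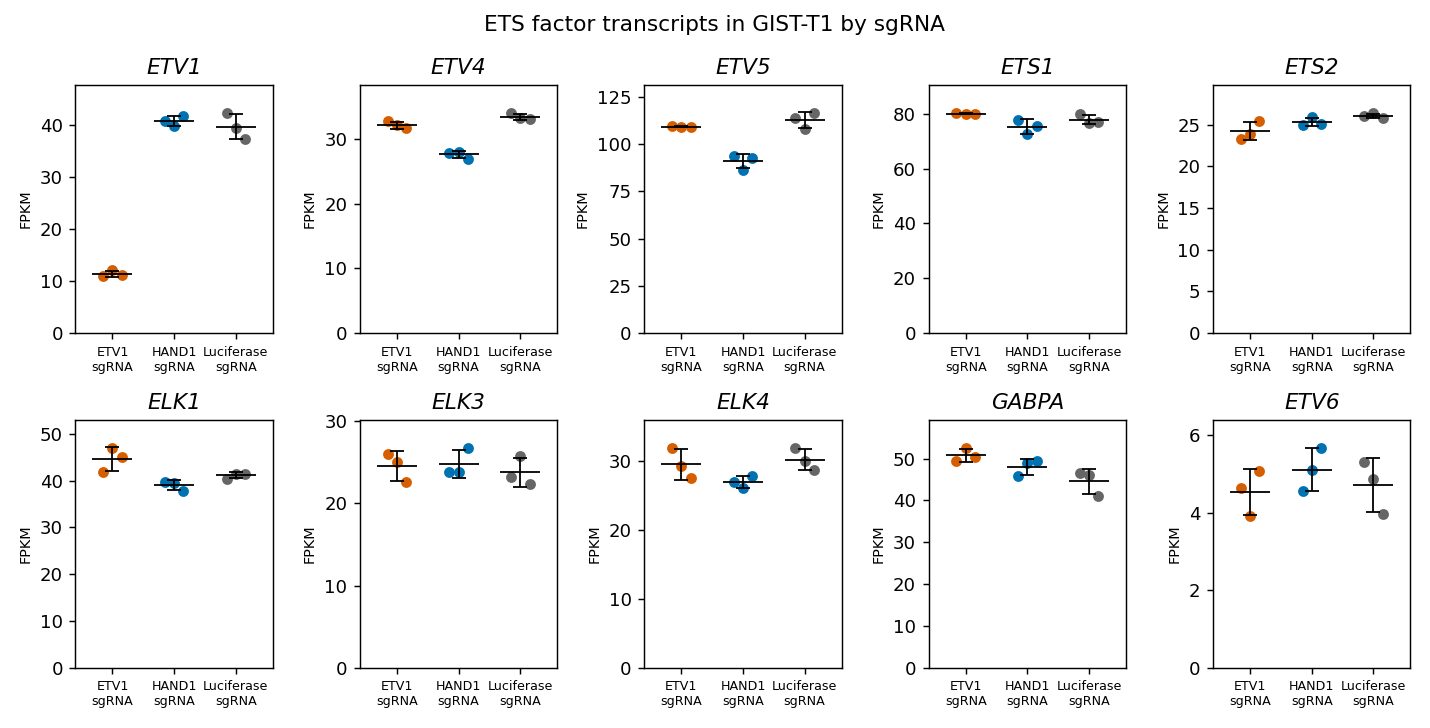
FPKM of the 10 ETS factors, 1 panel per gene with its own vertical axis from 0, for the ETV1, HAND1 and Luciferase sgRNA libraries; points are libraries in replicate order, long bars are means and short bars the SD (n = 3). ETV1 sits at 10.9 to 12.0 FPKM with its own sgRNA, and ETV4 and ETV5 sit below all control libraries with HAND1 sgRNA.

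Summed over ETV1, ETV4 and ETV5, the PEA3 transcripts lay lower in both sgRNA groups, with ETV1 lower in one and ETV4 and ETV5 in the other. The sum was 153.3, 153.4 and 151.8 FPKM with ETV1 sgRNA and 162.4, 154.5 and 161.5 FPKM with HAND1 sgRNA, against 189.8, 180.6 and 186.7 FPKM with Luciferase sgRNA. No library of either sgRNA reached the lowest control library; no test was run, since the sum is over genes chosen with results of these data known. ETV5 made up most of the sum in every group: 71.5% ± 0.255 with ETV1 sgRNA, 57.0% ± 0.885 with HAND1 sgRNA and 60.6% ± 1.41 with Luciferase sgRNA (SD, n = 3 each). The share of ETV1 was 7.46% ± 0.361 with ETV1 sgRNA and 25.6% ± 0.412 with HAND1 sgRNA, against 21.4% ± 1.17 with Luciferase sgRNA.

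**Figure D2:**
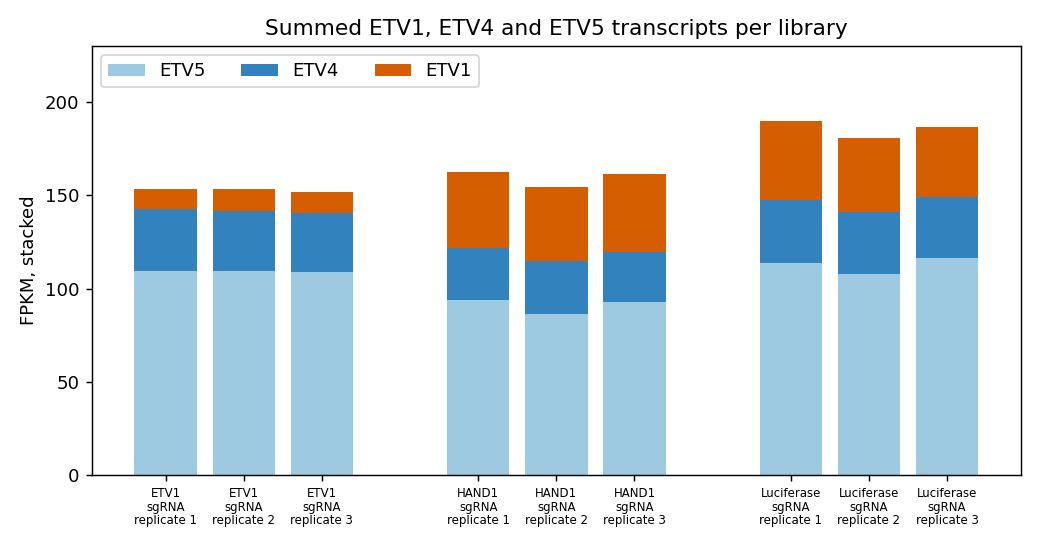
Stacked FPKM of ETV5, ETV4 and ETV1 in each of the 9 libraries, grouped by sgRNA. The ETV1 sgRNA libraries reach 151.8 to 153.4 FPKM and the HAND1 sgRNA libraries 154.5 to 162.4 FPKM, against 180.6 to 189.8 FPKM with Luciferase sgRNA; the ETV1 part is smaller in the ETV1 sgRNA libraries, and the ETV4 and ETV5 parts in the HAND1 sgRNA libraries.

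In the order of their levels in the Luciferase sgRNA libraries, ETV5 came first with a mean of 113 FPKM and ETS1 second with 77.9 FPKM. GABPA (44.6), ELK1 (41.1) and ETV1 (39.7 FPKM) followed, and the values of GABPA and ELK1 overlapped, as did those of ELK1 and ETV1. Below them came ETV4 (33.5), ELK4 (30.2), ETS2 (26.1) and ELK3 (23.8 FPKM), whose neighbours did not overlap, with ETS2 down to 25.83 and ELK3 up to 25.75 FPKM. ETV6 was far below the rest at 4.72 FPKM (percentile 23.3 of the genes tested), while ETV5 stood at percentile 93.2.

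The ternary complex factors gave no call against Luciferase sgRNA in limma. ELK1 was at 41.8, 46.9 and 44.9 FPKM with ETV1 sgRNA and 39.8, 39.5 and 37.7 FPKM with HAND1 sgRNA, against 40.4, 41.5 and 41.4 FPKM with Luciferase sgRNA. The ETV1 sgRNA libraries all lay above the control range and the HAND1 sgRNA libraries all below it, by differences of 0.11 (adjusted p = 0.651) and -0.075 (adjusted p = 0.495). Between the sgRNAs, ELK1 was 12.5% lower with HAND1 sgRNA (log2 -0.19, interval -0.31 to -0.066, unadjusted p = 0.00629, adjusted p = 0.101). ELK4 was at 26.9, 26.0 and 27.8 FPKM with HAND1 sgRNA, against 31.8, 30.0 and 28.7 FPKM with Luciferase sgRNA. Its groups did not overlap either, but the difference was not called (log2 -0.16, adjusted p = 0.204). ELK3 ranged from 22.3 to 26.7 FPKM over the 9 libraries with all groups overlapping, and its differences from Luciferase sgRNA were 0.046 with ETV1 sgRNA (adjusted p = 0.931) and 0.059 with HAND1 sgRNA (adjusted p = 0.730).

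ETS1, ETS2, GABPA and ETV6 were not called in any of the 3 comparisons in limma. ETS1 was at 80.1, 80.0 and 80.0 FPKM with ETV1 sgRNA and 77.7, 72.5 and 75.7 FPKM with HAND1 sgRNA, against 79.8, 76.8 and 77.0 FPKM with Luciferase sgRNA (log2 0.040 and -0.048, adjusted p = 0.887 and 0.623). The ETV1 sgRNA values lay just above the highest control library, and the HAND1 sgRNA values overlapped the controls. ETS2 was at 23.3, 23.9 and 25.4 FPKM with ETV1 sgRNA, below all 3 control libraries at 26.0, 26.3 and 25.8 FPKM (log2 -0.10, adjusted p = 0.659), and with HAND1 sgRNA it differed by -0.040 (adjusted p = 0.727). GABPA was at 49.4, 52.5 and 50.4 FPKM with ETV1 sgRNA, against 46.6, 46.1 and 41.0 FPKM with Luciferase sgRNA. These groups did not overlap, and the difference of 0.19 had a confidence interval above 0 (0.050 to 0.32), an unadjusted p of 0.0124 and an adjusted p = 0.425. With HAND1 sgRNA GABPA was at 45.8, 48.9 and 49.3 FPKM, overlapping the controls (log2 0.11, adjusted p = 0.369). ETV6 ranged from 3.90 to 5.66 FPKM over all libraries with all groups overlapping, and its intervals were wide (-0.31 to 0.22 with ETV1 sgRNA and -0.17 to 0.37 with HAND1 sgRNA).

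Groups without overlap with Luciferase sgRNA were found for 6 of the 10 ETS factors with ETV1 sgRNA. Of these 3 were higher and 3 lower, and the lower ones include ETV1, the target of that sgRNA. With HAND1 sgRNA 4 had such groups, all lower. Of all genes tested 12.9% had such groups with ETV1 sgRNA (6.88% higher, the rest lower) and 25.7% with HAND1 sgRNA (13.0% higher and 12.7% lower). Between the sgRNAs, 1 factor, the targeted ETV1, was higher and 5 were lower with HAND1 sgRNA without overlap. Of all genes 22.4% had such groups there (10.9% higher and 11.5% lower). The median difference from Luciferase sgRNA over the 10 factors was -0.038 with ETV1 sgRNA and -0.044 with HAND1 sgRNA, beside -0.0076 and -0.014 over all genes tested.

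**Figure D3:**
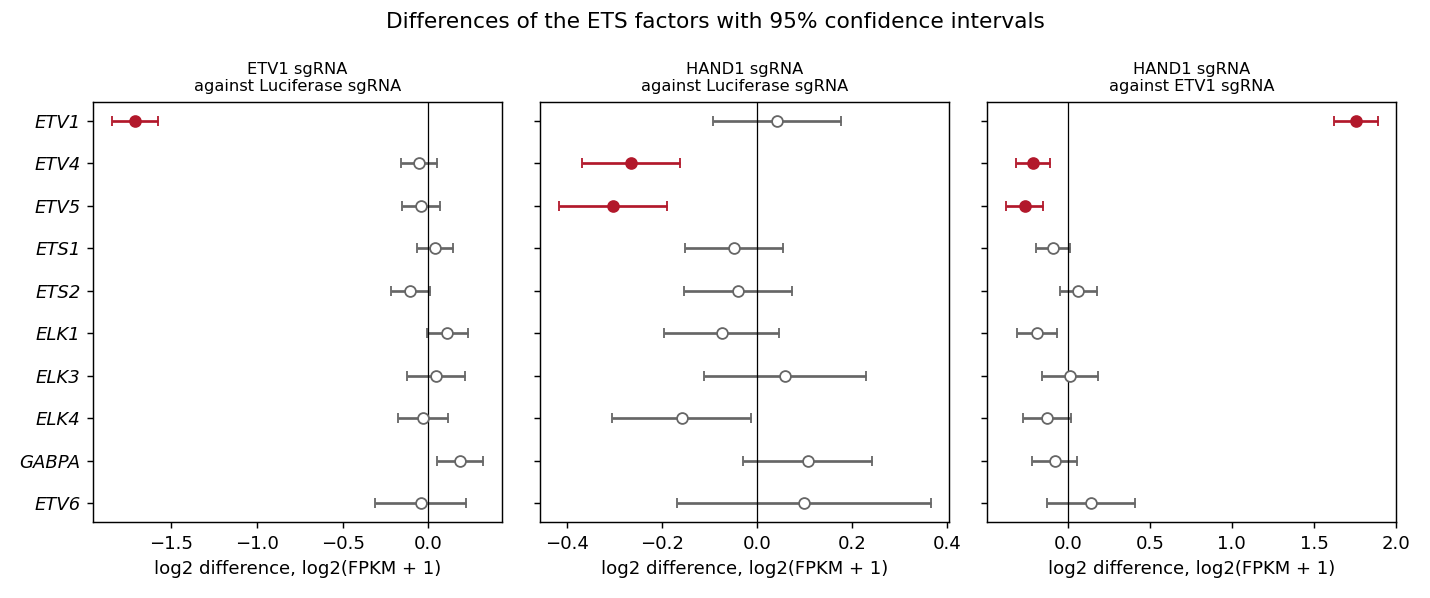
Differences in log2(FPKM + 1) of the 10 ETS factors in the 3 comparisons, with 95% confidence intervals from limma; the panels have different horizontal scales, and filled red points are called at an adjusted p under 0.05. ETV1 is called at -1.71 with its own sgRNA, ETV4 and ETV5 at -0.27 and -0.30 with HAND1 sgRNA, and the other intervals against Luciferase sgRNA lie between -0.31 and 0.37.

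To show what an ETS site looks like at the ETS genes themselves, the 150 bases before the annotated starts were searched on both strands for CCGGAA, an ETS core, for its longer form CCGGAAGT, and for AGGAAG. RefSeq promoter sequences (GRCh38.p14) matched 7 of the 10 factors, with 14 starts. CCGGAA was found at 5 of these starts, which belong to ETV1 (3 starts, some of them sharing 1 match), ELK4 and GABPA, and CCGGAAGT at those of ELK4 and GABPA; of all 35116 RefSeq windows of this length 11.1% hold CCGGAA and 2.98% CCGGAAGT. AGGAAG, another ETS core, was found at 1 of the 2 starts of ETS2 and at both starts of ELK3, and 18.8% of all windows hold it. The stretches follow with the match in capitals, which in GABPA lies on the other strand and reads ACTTCCGG.
ETV1, chr7:13990703-13990852, minus strand, 1 of 6 starts: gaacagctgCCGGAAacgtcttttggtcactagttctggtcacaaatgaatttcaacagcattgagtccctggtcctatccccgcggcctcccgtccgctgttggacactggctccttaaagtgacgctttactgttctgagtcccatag
ELK4, chr1:205632012-205632161, minus strand: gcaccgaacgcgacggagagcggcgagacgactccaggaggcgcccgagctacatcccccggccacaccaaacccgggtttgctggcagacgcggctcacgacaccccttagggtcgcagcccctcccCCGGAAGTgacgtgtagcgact
GABPA, chr21:25734822-25734971, plus strand: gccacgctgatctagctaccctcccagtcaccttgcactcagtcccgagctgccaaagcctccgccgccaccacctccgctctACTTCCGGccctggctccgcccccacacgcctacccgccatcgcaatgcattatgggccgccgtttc
The match begins 141 bases before the start in ETV1, 22 in ELK4 and, read on the plus strand, 67 in GABPA. A match in the letters is a description and shows no binding. With ETV1 sgRNA neither ELK4 nor GABPA was called (log2 -0.033 for ELK4 and 0.19 for GABPA).

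The other members of the ETS family were low or not called. Of 28 ETS family genes listed, 17 had a mean of at least 1 FPKM, 7 of them outside the 10 factors, and 4 were listed at 0 in every library. The 10 factors made up between 85.9% and 87.0% of the summed FPKM of the family in each library. Of the 7 others limma called 0 against Luciferase sgRNA with either sgRNA, with 2 and 0 at an unadjusted p under 0.05, where 8.20% and 20.3% of all genes tested had one. Between the sgRNAs limma also called 0 and 2 had such a p, beside 15.4% of all genes. ELF1, an activator of the ELF subfamily, was at 10.9, 12.3 and 10.2 FPKM with ETV1 sgRNA, against 9.44, 9.41 and 8.08 FPKM with Luciferase sgRNA (log2 0.28, adjusted p = 0.407). ETV3, a repressor, was at 7.09, 7.78 and 8.01 FPKM, against 9.09, 8.48 and 8.35 FPKM (log2 -0.16, adjusted p = 0.591). ELF4 (-0.17, adjusted p = 0.495) and FEV (0.16, adjusted p = 0.565) had the smallest p-values with HAND1 sgRNA. FLI1 and ERG, ETS factors of blood and endothelial cells, had means of 0.0320 and 1.15 FPKM.

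Among 12 genes that set the level of PEA3 proteins or transcripts, TRIB1 fell with both sgRNAs. TRIB1, a pseudokinase that brings substrates to the ubiquitin ligase COP1, was at 11.4, 11.6 and 11.6 FPKM with ETV1 sgRNA and 11.2, 11.6 and 11.6 FPKM with HAND1 sgRNA, against 20.7, 21.4 and 18.6 FPKM with Luciferase sgRNA. The sgRNA groups lay at one level, well below the control (log2 -0.76, limma adjusted p = 8.53e-04, and -0.77, adjusted p = 7.25e-05), and the 2 comparisons share their control libraries. TRIB2, its relative, fell with HAND1 sgRNA to 15.5 ± 0.646 FPKM, against 22.8 ± 1.38 FPKM with Luciferase sgRNA (log2 -0.53, adjusted p = 0.00128), and was also lower than with ETV1 sgRNA (-0.56, adjusted p = 0.00120). In all 1 of 12 was lower with ETV1 sgRNA and 2 of 12 with HAND1 sgRNA, with 0 higher in each, at medians of -0.00058 and -0.082 (-0.014 and -0.10 without Luciferase sgRNA replicate 3). Without that control library 3 of 12 were lower with HAND1 sgRNA. Of all genes tested 0.0617% were called lower with ETV1 sgRNA and 2.93% with HAND1 sgRNA. COP1, listed under its older symbol RFWD2, and CIC, the repressor of the PEA3 genes, were not called with either sgRNA; CIC was at 22.3, 19.2 and 22.03 FPKM with HAND1 sgRNA, against 18.3, 19.0 and 17.4 FPKM with Luciferase sgRNA (log2 0.20, adjusted p = 0.145).

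Upstream of the ETS factors, 2 of 16 genes of the RAS and ERK cascade were lower with HAND1 sgRNA and 0 were higher, where 2.93% of all genes tested were called lower and 3.67% higher. The median of the 16 was -0.074, or -0.038 without Luciferase sgRNA replicate 3. MAPK3, the kinase ERK1, was at 58.2, 53.2 and 55.7 FPKM with HAND1 sgRNA, against 74.5, 73.8 and 71.3 FPKM with Luciferase sgRNA (log2 -0.39, limma adjusted p = 0.00120). RPS6KA3, the ERK-activated kinase RSK2, was at 19.4, 21.0 and 20.5 FPKM, against 30.2, 29.0 and 27.7 FPKM (-0.49, adjusted p = 6.77e-04). The groups did not overlap for either gene, and both were also lower than with ETV1 sgRNA (-0.33 and -0.55, adjusted p = 0.00452 and 4.92e-04). KIT, the receptor above this cascade, was at 156, 159 and 165 FPKM with HAND1 sgRNA, against 216, 215 and 196 FPKM with Luciferase sgRNA (-0.38, adjusted p = 0.00336). Quantile normalization ended the KIT call (-0.28, adjusted p = 0.129), and its 18 alternatives reach from -0.43 to -0.28. With ETV1 sgRNA limma called 0 of the 16, with 1 at an unadjusted p under 0.05, beside 0.203% and 8.20% of all genes tested.

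Among ERK output genes, DUSP6 and SPRY4 fell with both sgRNAs. DUSP6, the phosphatase of ERK, was at 122, 122 and 130.2 FPKM with ETV1 sgRNA and 76.7, 75.2 and 80.3 FPKM with HAND1 sgRNA, against 181, 185 and 177 FPKM with Luciferase sgRNA. The 3 groups were fully separate, in steps of -0.53 with ETV1 sgRNA (limma adjusted p = 0.00136), -1.22 with HAND1 sgRNA (adjusted p = 7.78e-07) and -0.68 between HAND1 and ETV1 sgRNA (adjusted p = 3.71e-05). SPRY4, an inhibitor of receptor signalling, had the same order, at 97.9 ± 1.02 FPKM with HAND1 sgRNA (-0.75, adjusted p = 1.30e-05) and 124 ± 3.27 FPKM with ETV1 sgRNA (-0.41, adjusted p = 0.00489), against 165 ± 5.07 FPKM with Luciferase sgRNA. Quantile normalization ended its call with ETV1 sgRNA (adjusted p = 0.166), and so did a fit of these 2 groups alone (adjusted p = 0.0545).

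PHLDA1, an ERK-induced protein, fell with HAND1 sgRNA to 33.9, 34.2 and 36.9 FPKM, against 52.2, 51.5 and 49.6 FPKM with Luciferase sgRNA (-0.53, limma adjusted p = 1.58e-04), while with ETV1 sgRNA it stood above the control at 59.5, 58.8 and 60.3 FPKM without a call (0.22, adjusted p = 0.221). SPRY1, a relative of SPRY4, rose with ETV1 sgRNA (0.40, adjusted p = 0.0257); the call held in 8 of 18 alternative fits and was lost without ETV1 sgRNA replicates 1, 2 or 3, HAND1 sgRNA replicates 1, 2 or 3 or Luciferase sgRNA replicate 1 (adjusted p between 0.0506 and 0.150). DUSP5, a nuclear phosphatase of ERK, fell with HAND1 sgRNA (-0.38, adjusted p = 0.0273), a call lost without HAND1 sgRNA replicates 1 or 2 or any Luciferase sgRNA library (adjusted p between 0.0595 and 0.0924). In all 15 were tested: 1 was higher and 2 lower with ETV1 sgRNA (median -0.027), and 0 were higher and 4 lower with HAND1 sgRNA (median -0.11), or 3 lower without Luciferase sgRNA replicate 3. The shares over all genes tested were 0.141% higher and 0.0617% lower with ETV1 sgRNA, and 3.67% higher and 2.93% lower with HAND1 sgRNA. Without that control library the medians of the 15 were -0.044 with ETV1 sgRNA and -0.15 with HAND1 sgRNA. With all libraries, 4 of the 15 lay above all control libraries with HAND1 sgRNA and 7 below, beside 13.0% and 12.7% of all genes tested. SPRY1 was among the 4, without a call (0.20, limma adjusted p = 0.0725). CCND1, cyclin D1, was not called, at 50.7, 56.3 and 52.35 FPKM with ETV1 sgRNA and 58.4, 56.7 and 58.4 FPKM with HAND1 sgRNA, against 57.5, 52.7 and 55.4 FPKM with Luciferase sgRNA.

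Among targets of SRF and the ternary complex factors, EGR1 rose with ETV1 sgRNA and fell with HAND1 sgRNA. EGR1, an immediate early zinc finger factor, was at 193, 191 and 221 FPKM with ETV1 sgRNA and 21.6, 21.1 and 27.9 FPKM with HAND1 sgRNA, against 65.1, 68.7 and 68.1 FPKM with Luciferase sgRNA. No values of the 3 groups overlapped (log2 1.57 with ETV1 sgRNA, limma adjusted p = 6.56e-05, and -1.49 with HAND1 sgRNA, adjusted p = 1.81e-05). ELK1, ELK3, ELK4 and SRF were not called with either sgRNA. FOS, the partner of JUN, was at 12.7, 12.6 and 14.8 FPKM with ETV1 sgRNA and 1.61, 1.78 and 1.80 FPKM with HAND1 sgRNA, against 1.65, 2.38 and 2.50 FPKM with Luciferase sgRNA. It rose with ETV1 sgRNA (2.19, adjusted p = 2.07e-05), and the HAND1 sgRNA values overlapped the controls (-0.21, adjusted p = 0.361).

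IER2 and JUNB, immediate early genes, fell with HAND1 sgRNA. IER2 was at 43.5 ± 3.15 FPKM with HAND1 sgRNA, against 77.6 ± 13.2 FPKM with Luciferase sgRNA (SD, n = 3 each; -0.81, limma adjusted p = 0.00181), and JUNB at 12.2 ± 0.570 FPKM, against 19.7 ± 1.20 FPKM (-0.65, adjusted p = 0.00188). With ETV1 sgRNA both lay above all control libraries without a call (0.52 and 0.49, adjusted p = 0.180 and 0.0825). BTG2, an antiproliferative gene, rose with HAND1 sgRNA (0.30, adjusted p = 0.00587), as did CYR61, a matricellular protein named after its value was seen (0.42, adjusted p = 0.0231). CYR61 fell out of the calls when HAND1 sgRNA replicate 1, 2 or 3 or Luciferase sgRNA replicate 1 or 2 was left out (adjusted p between 0.0587 and 0.0803). It also lay above all control libraries with ETV1 sgRNA, without a call (0.47, limma adjusted p = 0.124). NR4A1 and MCL1, of the same list, lay below all control libraries with ETV1 sgRNA, also without a call (-0.35 and -0.090, adjusted p = 0.194 and 0.704). With that sgRNA 5 genes of the list were higher and 2 lower than Luciferase sgRNA without overlap. Of the 11 tested 2 were higher and 0 lower with ETV1 sgRNA (median 0.19), or 3 higher without Luciferase sgRNA replicate 3, and 2 were higher and 3 lower with HAND1 sgRNA (median -0.21). Between the sgRNAs 1 was higher and 5 were lower with HAND1 sgRNA, which tests the difference directly (EGR1 -3.05, adjusted p = 1.28e-07; FOS -2.40, adjusted p = 2.80e-06; JUNB -1.14; IER2 -1.33). Among all genes tested 0.203% were called with ETV1 sgRNA, 6.60% with HAND1 sgRNA and 4.05% between the sgRNAs.

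Ternary complex factors and SRF use composite sites, and the EGR1 promoter holds letter matches to both parts. In the 150 bases before its start (GRCh38.p14, RefSeq) 2 CArG boxes, the sites of SRF, begin 105 and 83 bases before the start, and an AGGAAG lies between them on the other strand from 94 to 89 bases before the start, without overlap.
EGR1, chr5:138465329-138465478, plus strand, CArG boxes in capitals: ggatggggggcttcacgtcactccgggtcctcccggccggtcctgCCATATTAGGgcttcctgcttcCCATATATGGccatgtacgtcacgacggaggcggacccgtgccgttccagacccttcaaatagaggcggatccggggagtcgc
A CArG box is found in 0.769% of all RefSeq windows of this length and AGGAAG in 18.8%. The letters show no binding in these cells. The EGR1 window holds no CCGGAA, and the spacing of its matches was not tested. SRF itself, not called with either sgRNA, had a CArG box and a CCGGAA at 1 of its 2 starts. DUSP6, called with both sgRNAs, had no CArG box, CCGGAA or AGGAAG in its window. Among the 7 ETS factors with a promoter in this reference 0 had a CArG box in the window.

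**Figure D4:**
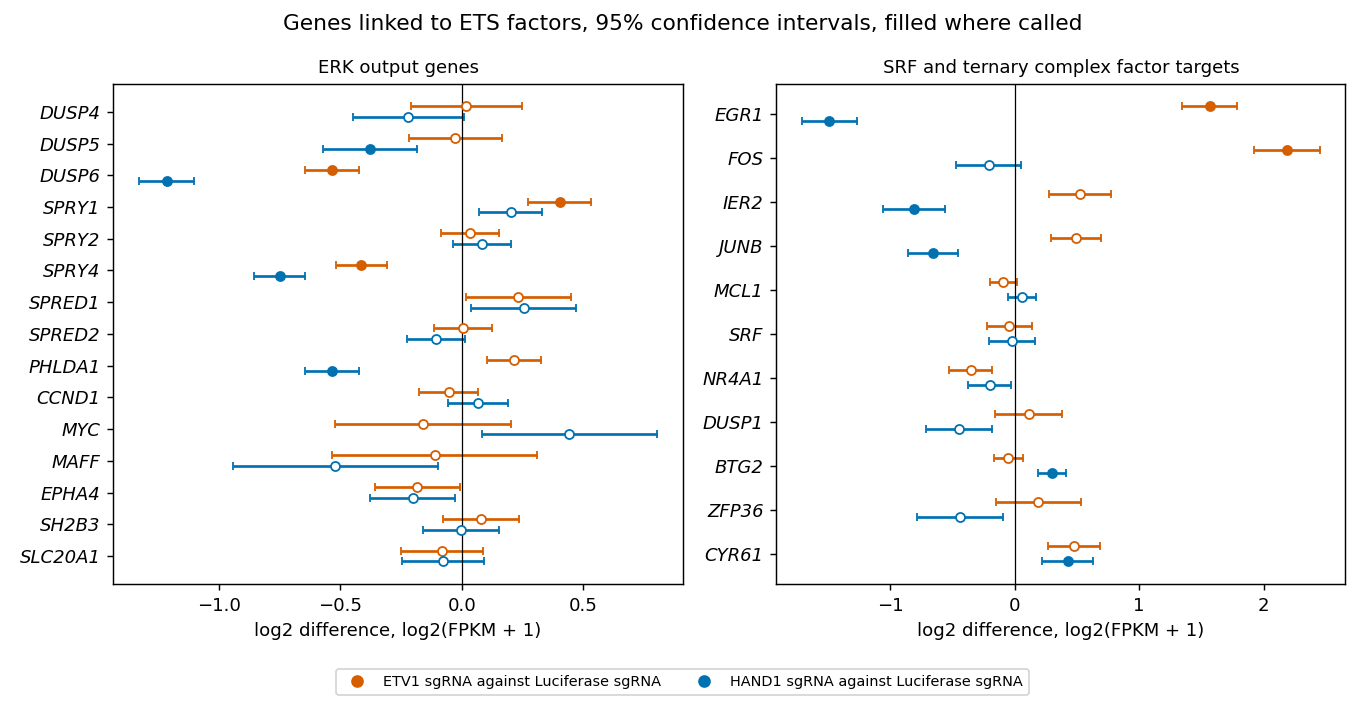
Differences in log2(FPKM + 1) from Luciferase sgRNA for the tested ERK output genes and the tested targets of SRF and the ternary complex factors, with ETV1 sgRNA in orange above HAND1 sgRNA in blue; bars are 95% confidence intervals and filled points are called. DUSP6 and SPRY4 lie below 0 with both sgRNAs, while EGR1 lies at 1.57 with ETV1 sgRNA and -1.49 with HAND1 sgRNA.

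Of 17 partners and cofactors of ETS factors, 2 rose with ETV1 sgRNA and 1 with HAND1 sgRNA, with 0 lower in each. Higher calls made up 0.141% of all genes tested with ETV1 sgRNA and 3.67% with HAND1 sgRNA, so that 1 of 17 with HAND1 sgRNA is near the share over all genes. FOS, given above, was one of the pair called with ETV1 sgRNA. JUN, which binds DNA together with FOS, was at 15.9, 14.7 and 16.4 FPKM with ETV1 sgRNA and 14.1, 14.3 and 14.5 FPKM with HAND1 sgRNA, against 11.3, 10.04 and 11.5 FPKM with Luciferase sgRNA (0.48, limma adjusted p = 0.0209, and 0.36, adjusted p = 0.00980). The JUN call with ETV1 sgRNA was lost without ETV1 sgRNA replicates 1 or 3, HAND1 sgRNA replicates 1, 2 or 3 or Luciferase sgRNA replicates 1 or 2 (adjusted p between 0.0506 and 0.135). SRF (14.999 ± 0.478 FPKM with ETV1 sgRNA, 15.3 ± 1.45 FPKM with HAND1 sgRNA and 15.5 ± 1.36 FPKM with Luciferase sgRNA) and GABPB1, the partner of GABPA (14.5 ± 1.79, 13.0 ± 1.61 and 14.7 ± 1.51 FPKM in the same order), were not called.

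Of 10 mitochondrial genes linked to GABP limma called 0 with either sgRNA, where 0.203% of all genes tested were called with ETV1 sgRNA and 6.60% with HAND1 sgRNA. An unadjusted p under 0.05 was found for 0 and 1 of the 10 in that order, beside 8.20% and 20.3% of all genes. The medians of the 10 were -0.048 with ETV1 sgRNA and -0.11 with HAND1 sgRNA. Without Luciferase sgRNA replicate 3 these medians were 0.030 with ETV1 sgRNA and -0.049 with HAND1 sgRNA. TFAM, the packaging factor of mitochondrial DNA, was at 24.4 FPKM with ETV1 sgRNA, against 22.9 FPKM with Luciferase sgRNA (0.090, adjusted p = 0.780). COX5B, a subunit of cytochrome oxidase, was at 408, 364 and 430.6 FPKM with ETV1 sgRNA, against 360.2, 429 and 729 FPKM with Luciferase sgRNA, where replicate 3 is the high one.

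Of the 9 GIST markers 4 fell and 0 rose with HAND1 sgRNA, or 5 fell without Luciferase sgRNA replicate 3. With all libraries 2.93% of all genes tested were called lower with HAND1 sgRNA and 3.67% higher. HAND1, the target of the sgRNA itself, and KIT, both given above, are among the 4. GPR20, an orphan receptor of GIST, fell by 0.84 (log2; 45.1 ± 1.35 FPKM with HAND1 sgRNA, against 81.6 ± 7.04 FPKM with Luciferase sgRNA, SD, n = 3 each, limma adjusted p = 1.25e-04), and PRKCQ, the kinase PKC theta, fell by 0.75 (adjusted p = 3.26e-04). With ETV1 sgRNA 0 of 9 were called and 2 had an unadjusted p under 0.05, HAND1 (0.21, adjusted p = 0.244) and OSR1, a zinc finger factor (0.21, adjusted p = 0.233). Of all genes tested 0.203% were called with ETV1 sgRNA and 8.20% had such an unadjusted p. The 14 markers of other cell types summed to between 4.88 and 7.07 FPKM with ETV1 sgRNA and between 6.26 and 8.24 FPKM with HAND1 sgRNA, against 4.69 to 5.87 FPKM with Luciferase sgRNA. Without CD68 the sums were 0.738 to 1.66, 0.910 to 1.55 and 0.767 to 1.36 FPKM in that order. CD68 rose with HAND1 sgRNA (0.50, adjusted p = 0.0466), a call kept in 10 of 18 alternative fits and lost without ETV1 sgRNA replicate 1, HAND1 sgRNA replicates 1, 2 or 3 or Luciferase sgRNA replicates 1 or 3 (adjusted p between 0.0551 and 0.151); its part in the falls of ETV4 and ETV5 was not tested.

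The genes whose values over the 9 libraries followed the called ETS factors most closely were found by the root mean square difference in centred log2(FPKM + 1). For ETV4 they were FDFT1, a sterol synthesis enzyme (0.0340), CNOT6, a deadenylase subunit (0.0344), and RASSF5, a RAS-binding protein (0.0369). For ETV5 they were SOBP (0.0440), CNOT6 again (0.0448) and ERMP1 (0.0466). For ETV1 the nearest were SGPP2 (0.482), LYPD6B (0.502) and CDK3 (0.505). The measure is not scaled to the size of a factor's change, which was larger for ETV1 than for ETV4 and ETV5. Its distances therefore cannot be compared with theirs. SGPP2, LYPD6B and CDK3 had means between 0.735 and 2.63 FPKM in the 3 groups, and none was called with ETV1 sgRNA (limma adjusted p = 0.264, 0.206 and 0.411). All lay below the control libraries with ETV1 sgRNA without overlap. Between the sgRNAs LYPD6B and CDK3 were called higher with HAND1 sgRNA (0.77 and 1.05, adjusted p = 0.0257 and 0.0217), and SGPP2 was not (adjusted p = 0.0714). These genes were picked for following ETV1 over the same libraries.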

How the data were processed

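PolyA RNA of GIST-T1 was extracted with an RNeasy Plus Kit and prepared without strand information (NEBNext Ultra II) and run on a NovaSeq6000, per the labels' protocols; without strand, a gene and an overlapping antisense gene cannot be told apart. Per the submitters' processing notes the tools were STAR and Cufflinks and the build hg19, with no tool versions; the annotation and any scaling between libraries are unstated. The deposited values are FPKM, 1 per symbol and library, and not counts, so depth is known only as a ratio between libraries, read from the most frequent log2 ratio (bins of 0.01) of values between 0.001 and 0.1 FPKM. Values below 1e-06 were read as 0.

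Genes whose mean over the 9 libraries reached 1 FPKM (11348) were fitted as log2(FPKM + 1) with limma 3.58.1 in R 4.3.3, with group as the only term, all libraries and an intensity trend (6 residual and 4.15 prior degrees of freedom). This scale understates changes of low genes. Tests were two-sided with Benjamini-Hochberg adjustment over all genes tested; called means an adjusted p under 0.05. The script was tested on simulated data. The ETS factors and gene lists were chosen with earlier results of these data known. Named genes are the 10 factors, KIT, up to 4 called members of each list per comparison (up to 2 where none was called) and the 3 nearest genes of each called factor; further genes are named beside them as list examples. Alternatives for ETS factors were set at the start, while those for list genes and list counts were added after seeing the data. Promoters came from RefSeq (GRCh38.p14), with no coordinates of the deposited table used.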

Additional observations from a re-analysis of the deposited data

How the results depend on the processing

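Of the 18 alternatives (17 for ETV6, which a minimum of 5 FPKM removes), every one kept ETV1 called with its own sgRNA (-1.79 to -1.44) and ETV4 (-0.28 to -0.24, adjusted p at most 0.0394) and ETV5 (-0.33 to -0.25, adjusted p at most 0.0327) called with HAND1 sgRNA, each against Luciferase sgRNA. Against ETV1 sgRNA, ETV4 was not called with median centring (-0.20, adjusted p = 0.0576), quantile normalization (-0.20, adjusted p = 0.0683), no intensity trend (-0.21, adjusted p = 0.0581) or a fit of the 2 groups alone (-0.21, adjusted p = 0.0501). With quantile normalization ETV5 was not called there either (-0.24, adjusted p = 0.0609), which left 1 of the 10 factors. Leaving out a library gave 1 to 3 called factors in this comparison, with ETV4 between -0.22 and -0.20 and ETV5 between -0.28 and -0.23; the cause was not tested.

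Uncalled differences near 0 turned sign when a library was left out: ELK4 (-0.088 to 0.016) and ETV6 (-0.14 to 0.040) with ETV1 sgRNA, ETV6 with HAND1 sgRNA (-0.000633 to 0.17), and ELK3 between the sgRNAs (-0.044 to 0.055). All genes called with ETV1 sgRNA numbered 23, against 14 with only the 2 groups in the fit and 11 to 26 with a library left out; for HAND1 sgRNA the count of 749 ranged from 433 to 730, and between the sgRNAs that of 460 from 271 to 583. With an arm of 2 libraries the spread is pooled over the groups.

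With the replicate number as a block ETV4 lost its call between the sgRNAs (-0.21, adjusted p = 0.0624), as did SPRY1 with ETV1 sgRNA (adjusted p = 0.129); no other ETS factor or followed list gene lost its call, and 16, 632 and 364 genes were called in the 3 comparisons. Between groups, correlations of deviations from group means were -0.146 to 0.138 for same-numbered libraries and -0.126 to 0.196 for differently numbered ones. The ranges overlap and come from 3 libraries a group, so whether libraries pair by number cannot be read from them. Shared handling of same-numbered libraries was not tested.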
